A study of Sus scrofa with 6 samples.

Results

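Genes of fatty acid oxidation were followed in single cells of the piglet ileum from birth to day 21. The set holds 9 of the 20648 genes counted in the files, taken by gene symbol with no threshold on measured values. It comprises the carnitine shuttle enzymes CPT1A and CPT2, the acyl-CoA dehydrogenases ACADM and ACADVL, both subunits of the mitochondrial trifunctional protein (HADHA and HADHB), the transcription factors PPARA and CREB3L3, and the kinase PDK4. All 9 were found in the files. The working name of the set also covers ketogenesis, but no gene in it is an enzyme of ketone body synthesis, so genes of ketone body metabolism are given separately near the end. The scRNA-seq data hold 1 library for each of days 0, 1, 3, 7, 14 and 21 after birth, all from the ileum of male Large White piglets, which were kept on maternal milk with no antibiotics or vaccination. The study's methods give 5 piglets per age and 1 chip channel per group, without stating how their cells were combined, so there is no replicate error between ages. No p-value is therefore given, and every interval below is a 95% interval that covers counting error only.

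Long-chain fatty acids enter mitochondria as carnitine esters. CPT1A makes the ester at the outer membrane and is the rate-limiting step of the route, and CPT2 turns it back into acyl-CoA inside. ACADVL and ACADM start each round of β-oxidation on very-long-chain and medium-chain acyl-CoA, and the trifunctional protein of HADHA and HADHB carries out the remaining steps on long chains. PPARA is the nuclear receptor that fatty acids activate, CREB3L3 is a membrane-bound transcription factor of liver and small intestine with targets in lipid metabolism, and PDK4 holds back pyruvate oxidation by phosphorylating pyruvate dehydrogenase. In the suckling animal fat from milk is a main fuel, and enterocytes take it up and package it into chylomicrons.

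Barcodes with at least 1000 unique molecular identifiers (UMIs) and 500 genes numbered 10836, 11494, 11361, 12634, 15956 and 13818 in order of age. A barcode was epithelial with at least 5 UMIs of EPCAM, KRT8 and VIL1 together, myeloid with 10 of LYZ, CST3 and AIF1, B with 2 of MS4A1, PAX5 and POU2AF1 and T with 2 of CD3E and CD3G, and barcodes that met more than 1 rule (94 to 500 per library) were set aside. The epithelial barcodes numbered 2601, 920, 87, 196, 27 and 1 in order of age, while B barcodes numbered 2187, 3387, 8015, 10251, 14637 and 13021. T barcodes numbered 1757, 1622, 368, 453, 370 and 205, and myeloid barcodes 244, 769, 177, 18, 74 and 5. Levels are given as CPM, the UMIs of a gene scaled to 1000000 UMIs summed over the barcodes of a set, and are compared only within a gene. Markers that the rules did not use went with the names: KRT18, KRT19, CDH1 and CDX2 together were at 1333 to 2481 CPM in epithelial barcodes of days 0 to 14 and at 57.03 or fewer in B barcodes, whereas CD79B was at 873 to 1260 in B barcodes and at 6.92 to 58.2 in epithelial barcodes of days 0 to 14. T barcodes of day 0 also carried 391 CPM of the myeloid check list. Libraries shared 672 of 75427 distinct barcodes (0.891%), and leaving these out changed none of the counts of genes past 2-fold between epithelial ages, or between epithelial and B barcodes, by more than 1.5 times. The single epithelial barcode of day 21 is not described further.

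The makeup of the epithelial barcodes differed between ages, and every level below has to be read beside it. Absorptive markers (FABP2, RBP2 and APOA4 together) were at 2434, 4930, 10.5, 2594 and 8418 CPM in the epithelial barcodes of days 0, 1, 3, 7 and 14. On day 3 none of the 87 epithelial barcodes had 10 UMIs of the absorptive sum, whereas 28 had 10 UMIs of the enteroendocrine sum alone (CHGA and CHGB), 20 of the crypt sum (OLFM4 and SPINK1) and 17 of the goblet sum (MUC2, FCGBP and CLCA1). On day 7, 98 of the 196 epithelial barcodes had fewer than 10 UMIs of each of these sums and of FABP6. Their medians were 2380.5 UMIs and a mitochondrial share of 22.0%. On day 14 the 27 epithelial barcodes included 23 absorptive ones, and no enteroendocrine, crypt or goblet barcode. Median depth of all epithelial barcodes was 9343, 15180, 7660, 4469 and 6146 UMIs on days 0, 1, 3, 7 and 14. Their median mitochondrial share was 7.88%, 9.52%, 10.6%, 13.6% and 7.44%.

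CPT1A (chromosome 2, 4250642 to 4293914 of Sscrofa11.1) was at 21.2 CPM in the epithelial barcodes of day 0 (735 UMIs, interval 19.7 to 22.8) and 30.3 on day 1 (27.6 to 33.1). It was at 18.5 on day 3 (14 UMIs, 10.1 to 31.0), 14.3 on day 7 (17 UMIs, 8.36 to 23.0) and 84.8 on day 14 (15 UMIs, 47.5 to 140). Day 14 stood above the other 4 of these ages beyond counting error, and the intervals of days 3 and 7 overlapped. CPT2 (chromosome 6, 159038129 to 159061327) varied less between ages than CPT1A in the same barcodes. Its level was 13.6, 17.7, 14.5, 21.9 and 17.0 CPM from day 0 to day 14, and the last 3 values rested on 11, 26 and 3 UMIs. Both enzymes of the shuttle were thus detected in epithelial barcodes at each of these 5 ages.

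ACADM (chromosome 6, 137541481 to 137575544) was at 206, 335, 64.6, 272 and 441 CPM in epithelial barcodes of days 0, 1, 3, 7 and 14. Only the day 3 level, from 49 UMIs (47.8 to 85.4), lay near the level of the B barcodes of that day, 73.5. ACADVL (chromosome 12, 52573521 to 52581755) was at 50.5, 84.7, 52.7, 65.8 and 107 CPM at the same ages. ACADVL overlaps the counted genes DLG4 and DVL2 at its ends, and the files do not state how counting treated the strand there, so its counts are less certain than those of ACADM.

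The subunits of the trifunctional protein lie next to each other on chromosome 3, with HADHB at 112712894 to 112753121 and HADHA at 112753343 to 112797627, 221 bases apart. In epithelial barcodes HADHA was at 116, 157, 69.9, 168 and 181 CPM at the same ages. HADHB was at 63.5, 72.8, 39.6, 69.2 and 67.8. From day 0 to day 14 both subunits had their lowest epithelial level on day 3, with intervals of 52.4 to 91.4 for HADHA and 26.7 to 56.5 for HADHB that lay below those of days 0 and 1.

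Of the regulators, CREB3L3 (chromosome 2, 74578471 to 74588269) was at 75.0 CPM in epithelial barcodes of day 0 (2600 UMIs) and 226 of day 1 (3533 UMIs). The later levels were 2.64 on day 3 (2 UMIs, 0.319 to 9.53), 80.2 on day 7 (95 UMIs, 64.9 to 98.0) and 752 on day 14 (133 UMIs, 630 to 891). The order of ages was thus day 14, day 1, days 7 and 0, whose intervals overlapped, and day 3, and the absorptive marker sum had the same order. PDK4 (chromosome 9, 75246956 to 75260134) was at 7.13, 17.0, 3.96 and 5.91 CPM at days 0, 1, 3 and 7, the last 2 on 3 and 7 UMIs. It had 0 UMIs in the 27 barcodes of day 14, where the limit that a count of 0 allows is 17.0 CPM. PDK4 lies inside the counted gene ASB4, and how reads in the overlap were assigned is not given in the sources used here. PPARA (chromosome 5, 3302755 to 3321091) was close to the limit of detection everywhere, with 33, 19, 0, 1 and 2 UMIs in the epithelial barcodes of the 5 ages. The 2 UMIs of day 14 stood for 11.3 CPM with an interval of 1.37 to 40.8, against 0.952 (0.655 to 1.34) on day 0. Over the whole series PPARA had 135 UMIs, against 6494 for CPT1A and 44005 for ACADM, and its levels are too coarse to order the ages.

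**Figure D1:**
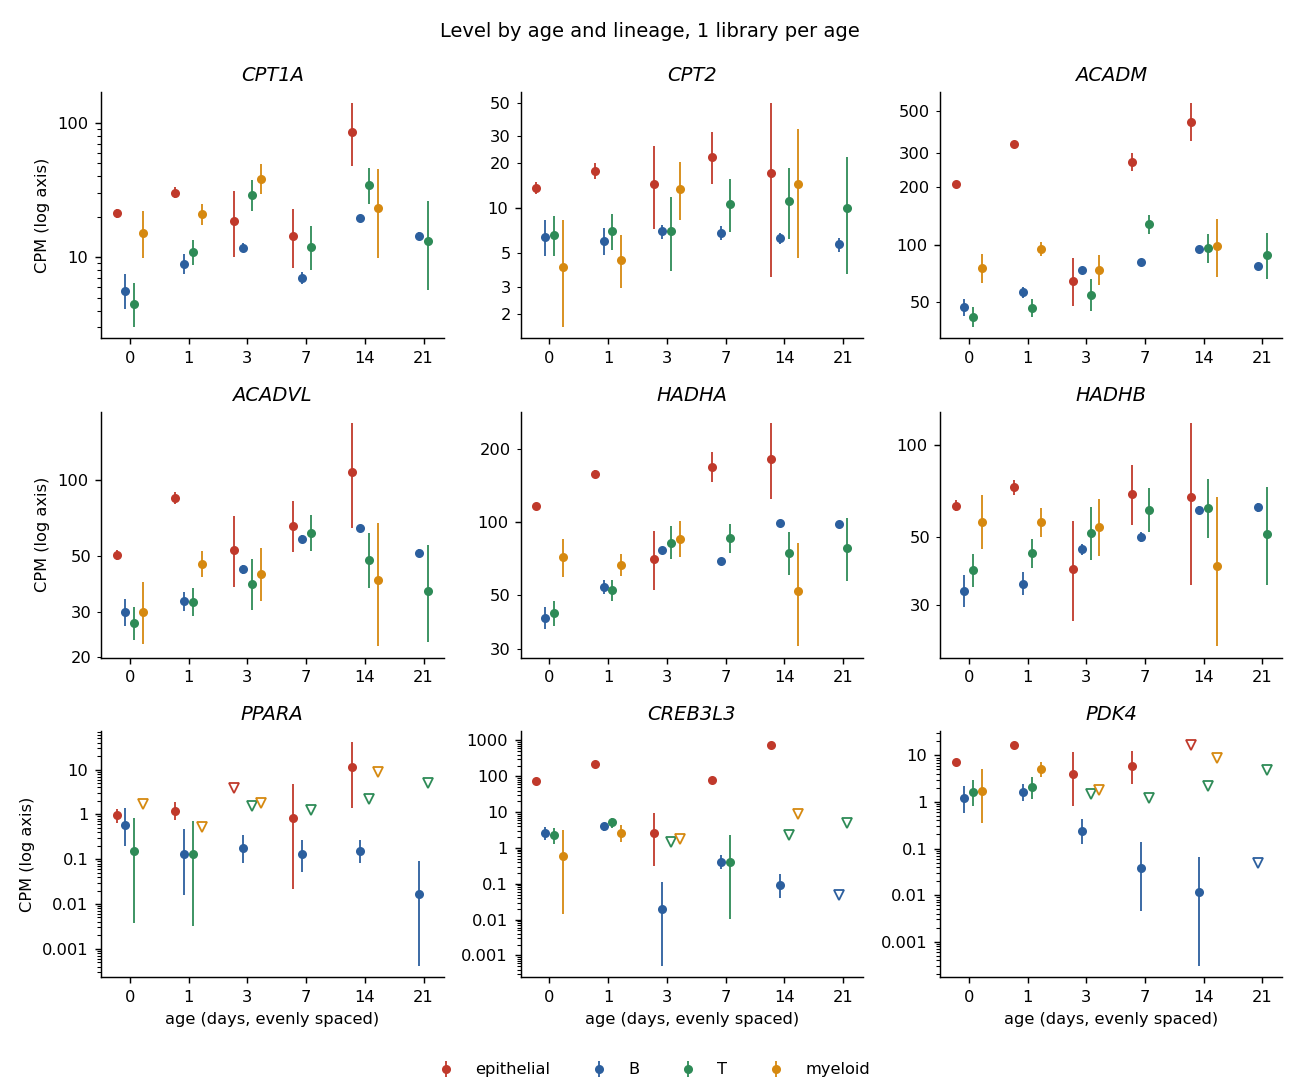
CPM (log axis) of each of the 9 genes by age in days, for epithelial (red), B (blue), T (green) and myeloid (orange) barcodes, with points for 1 library each, bars for the exact 95% Poisson interval and open triangles for the limit of 3 counts where no UMI was found. Sets of under 20 barcodes are left out. The red points of CREB3L3 run from 2.64 on day 3 to 752 on day 14, while the blue points of HADHA run from 40.2 on day 0 to 98.8 on day 14.

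Against day 0, a ratio of at least 2 or at most 0.5 between the CPM of 2 libraries was taken as past 2-fold, among genes with at least 20 UMIs over both. On day 1, 2 of 9 genes were at least 2-fold higher in epithelial barcodes, where 6.69% of 13588 genes were, and 0 were 2-fold lower (6.37% of all genes). These were CREB3L3, 3.02 times its day 0 level (2.87 to 3.18), and PDK4, 2.38 times (1.997 to 2.85). ACADVL (1.68), ACADM (1.63), CPT1A (1.43, 1.27 to 1.60), HADHA (1.35) and CPT2 (1.30) were higher by less than 2-fold, with intervals above 1, and HADHB was at 1.15 (1.07 to 1.23). The median ratio over the 9 genes was 1.43 beside 1.04 over all genes. PDK4 was at 1.61 when levels were averaged over barcodes and at 1.92 when each barcode was thinned to 1000 UMIs, so its place past 2-fold depends on how barcodes are weighted.

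On day 3, 2 of 8 genes were at least 2-fold lower in epithelial barcodes than on day 0 (10.5% of all genes) and 0 were 2-fold higher (18.9%). PPARA, with 0 UMIs against 33, gave no ratio, because 0 set at 3 counts would have pointed to a higher level. ACADM was at 0.313 of its day 0 level (0.232 to 0.415) and CREB3L3 at 0.0352 (0.00426 to 0.127). HADHA was at 0.602 (0.450 to 0.788) and HADHB at 0.623 (0.419 to 0.892), while CPT1A at 0.871, CPT2 at 1.07 and ACADVL at 1.04 had intervals that included 1. The absorptive markers were nearly missing on day 3, as given above, and their part in these ratios was not tested. With TMM scaling, which moved the median ratio of all genes from 1.19 to 0.943, 5 of the 8 genes were past 2-fold lower, because HADHA, HADHB and PDK4 then passed as well. HADHA was at 1.23 after thinning to 1000 UMIs per barcode. That value rested on fewer HADHA UMIs than the 53 of day 3 before thinning and has no interval, so no reversal is read from it. On day 7, 0 of 9 genes were past 2-fold in either direction (19.0% of all genes higher, 9.82% lower), and the ratios ran from 0.677 for CPT1A to 1.62 for CPT2.

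Within the absorptive barcodes, those with at least 10 UMIs of the absorptive sum and fewer than 10 of the enteroendocrine, crypt and goblet sums, 926 barcodes of day 0 could be set against 492 of day 1 and 64 of day 7. This comparison was added after the makeup of the libraries had been seen. The set pools barcodes with and without 10 UMIs of FABP6, an ileal bile acid binding protein, and those with it were 243 of day 0, 71 of day 1 and 50 of day 7. Here CPT1A was at 10.7 CPM on day 0 and 24.96 on day 1, a ratio of 2.33 (1.92 to 2.83). PDK4 was at 4.74 and 21.1, a ratio of 4.45 (3.43 to 5.81), and CREB3L3 at 127 and 325, a ratio of 2.55 (2.42 to 2.70). These 3 of 9 genes were at least 2-fold higher on day 1 (9.57% of all genes), 0 were 2-fold lower (5.50%), and ACADVL followed at 1.85 (1.69 to 2.03). The ratios of CPT1A and PDK4 were larger here than over all epithelial barcodes, and their intervals did not overlap those given above. The absorptive barcodes are part of the epithelial ones, so these sets are not independent. The 201 PDK4 UMIs of day 1 lay in 88 absorptive barcodes. A PDK4 UMI was found in 6.26% of absorptive barcodes on day 0 and 17.9% on day 1. Barcode weighting was not varied within the absorptive set. On day 7, 0 of 9 were past 2-fold in the absorptive barcodes (16.4% higher, 11.2% lower), CPT2 being nearest at 1.97 (1.13 to 3.23) with 17 UMIs. Without the FABP6 barcodes CREB3L3 was at 140 CPM on day 0 (133 to 147), 326 on day 1 (313 to 338) and 271 in the 14 barcodes of day 7 (188 to 376), and with FABP6 at 99.1 (91.0 to 108), 322 (295 to 352) and 114 (86.5 to 148). Its day 7 level in the pooled set thus lies between a higher and a lower one. On day 14 the 23 absorptive barcodes, 22 of them with at least 10 UMIs of FABP6, were too few for a ratio. They held CPT1A at 87.3 CPM (14 UMIs, 47.7 to 146), CREB3L3 at 811 (130 UMIs) and ACADM at 455 (73 UMIs).

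**Figure D2:**
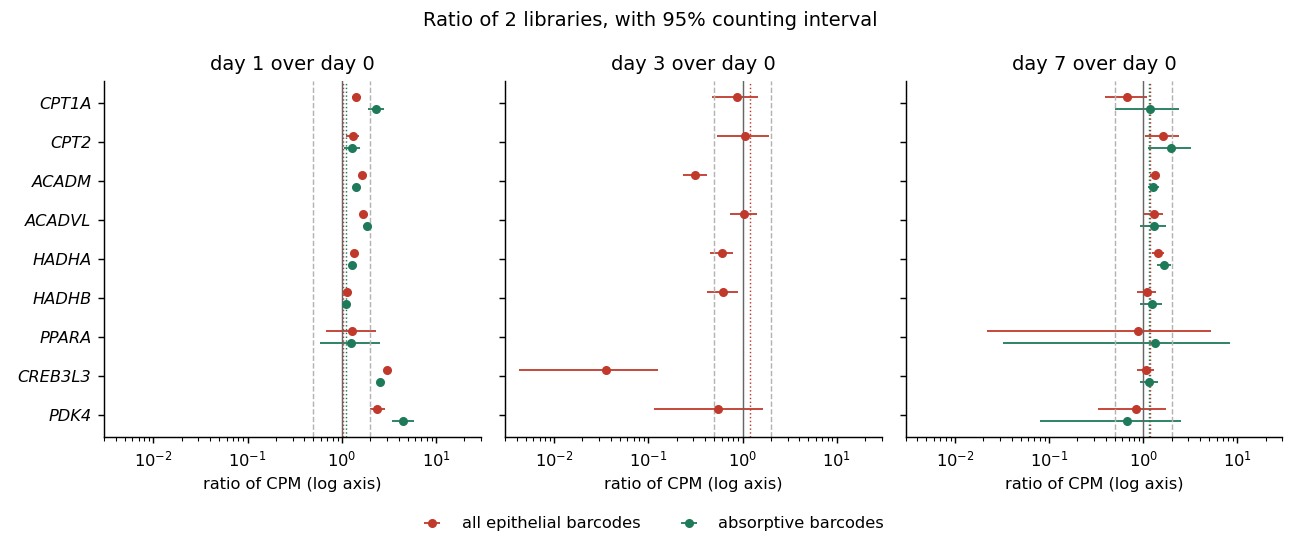
Ratio of CPM to day 0 (log axis) for the 9 genes on days 1, 3 and 7, in all epithelial barcodes (red) and in absorptive barcodes (green), with 95% counting intervals. Dashed lines mark 2-fold, dotted lines the median of all genes, and day 3 has no absorptive barcodes. On day 1 the green points of CPT1A, CREB3L3 and PDK4 lie beyond 2-fold, and on day 3 CREB3L3 lies at 0.0352.

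The parts of the epithelium differed from one another in opposite directions for different genes. CPT1A was at 83.3 CPM in the 468 enteroendocrine barcodes of day 0 (71.6 to 96.5), 55.2 in the 415 goblet barcodes (47.5 to 63.8), 10.7 in absorptive barcodes (9.25 to 12.4) and 10.1 in the 162 crypt barcodes (6.99 to 14.1). Its ratio to the absorptive level was 7.78 (6.30 to 9.59) in enteroendocrine and 5.15 (4.18 to 6.34) in goblet barcodes. On day 1 the same order held, with 100.4 in 76 enteroendocrine, 66.6 in 71 goblet, 24.96 in absorptive and 19.9 in 61 crypt barcodes, and ratios of 4.02 (2.78 to 5.68) and 2.67 (1.94 to 3.61). CPT1A was therefore highest in the secretory barcodes at both ages, while its absorptive and crypt levels had overlapping intervals. On day 3 the 28 enteroendocrine barcodes held 5 CPT1A UMIs and the 17 goblet barcodes 6, or 32.3 and 30.5 CPM.

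PDK4 likewise had its highest CPM in enteroendocrine barcodes, but was not high in goblet barcodes. It was at 26.5 CPM in enteroendocrine barcodes of day 0 (20.1 to 34.4), 6.23 in crypt, 4.74 in absorptive and 3.32 in goblet barcodes, and at 55.5, 10.4, 21.1 and 2.51 on day 1. Its ratio of enteroendocrine to absorptive barcodes was 5.60 (3.93 to 7.93) on day 0 and 2.63 (1.59 to 4.13) on day 1.

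Of the 4 parts compared, CREB3L3 and ACADM were highest in the absorptive one. A smaller set of 53 barcodes of day 0 with at least 10 UMIs of FABP6 and fewer than 10 of every other sum held CREB3L3 at 166 CPM (128 to 211) and ACADM at 112 (81.5 to 151). CREB3L3 was at 127 CPM in absorptive barcodes of day 0 and at 4.83 or fewer in goblet, enteroendocrine and crypt barcodes, and at 325 against 7.93 or fewer on day 1. ACADM was at 318 in absorptive, 96.8 in crypt, 47.0 in enteroendocrine and 41.3 in goblet barcodes on day 0, and at 446, 114, 76.6 and 75.4 on day 1. The ACADM ratios to the absorptive level were 0.148 (0.120 to 0.180) in enteroendocrine, 0.130 (0.109 to 0.154) in goblet and 0.304 (0.271 to 0.340) in crypt barcodes of day 0. HADHA and HADHB were also highest in the absorptive part on both days, by less. On day 0 their crypt ratios to the absorptive level were 0.837 (0.751 to 0.932) and 0.754 (0.646 to 0.877). CPT2 did not follow either pattern, with 13.7 CPM in absorptive, 15.1 in crypt, 14.8 in goblet and 10.2 in enteroendocrine barcodes on day 0, all with overlapping intervals.

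Over the set, 2 of 9 genes were at least 2-fold higher in enteroendocrine than in absorptive barcodes on day 0 (29.6% of all genes) and 2 were 2-fold lower (13.4%). In goblet barcodes 1 of 9 was higher (15.6%) and 4 were lower (17.1%), the latter being ACADM, CREB3L3, HADHA at 0.435 and HADHB at 0.456. In crypt barcodes 0 were higher (14.2%) and 3 were lower (14.4%), among them PPARA on 1 UMI. On day 1 the counts among 8 genes were 2 higher (25.8%) and 3 lower (17.1%) in enteroendocrine, 1 higher (13.5%) and 4 lower (22.1%) in goblet, and 0 higher (17.7%) and 4 lower (22.4%) in crypt barcodes. Enteroendocrine barcodes were shallower than absorptive ones, with medians of 3940.5 and 16742.5 UMIs on day 0, and the part of depth in these ratios was not tested.

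**Figure D3:**
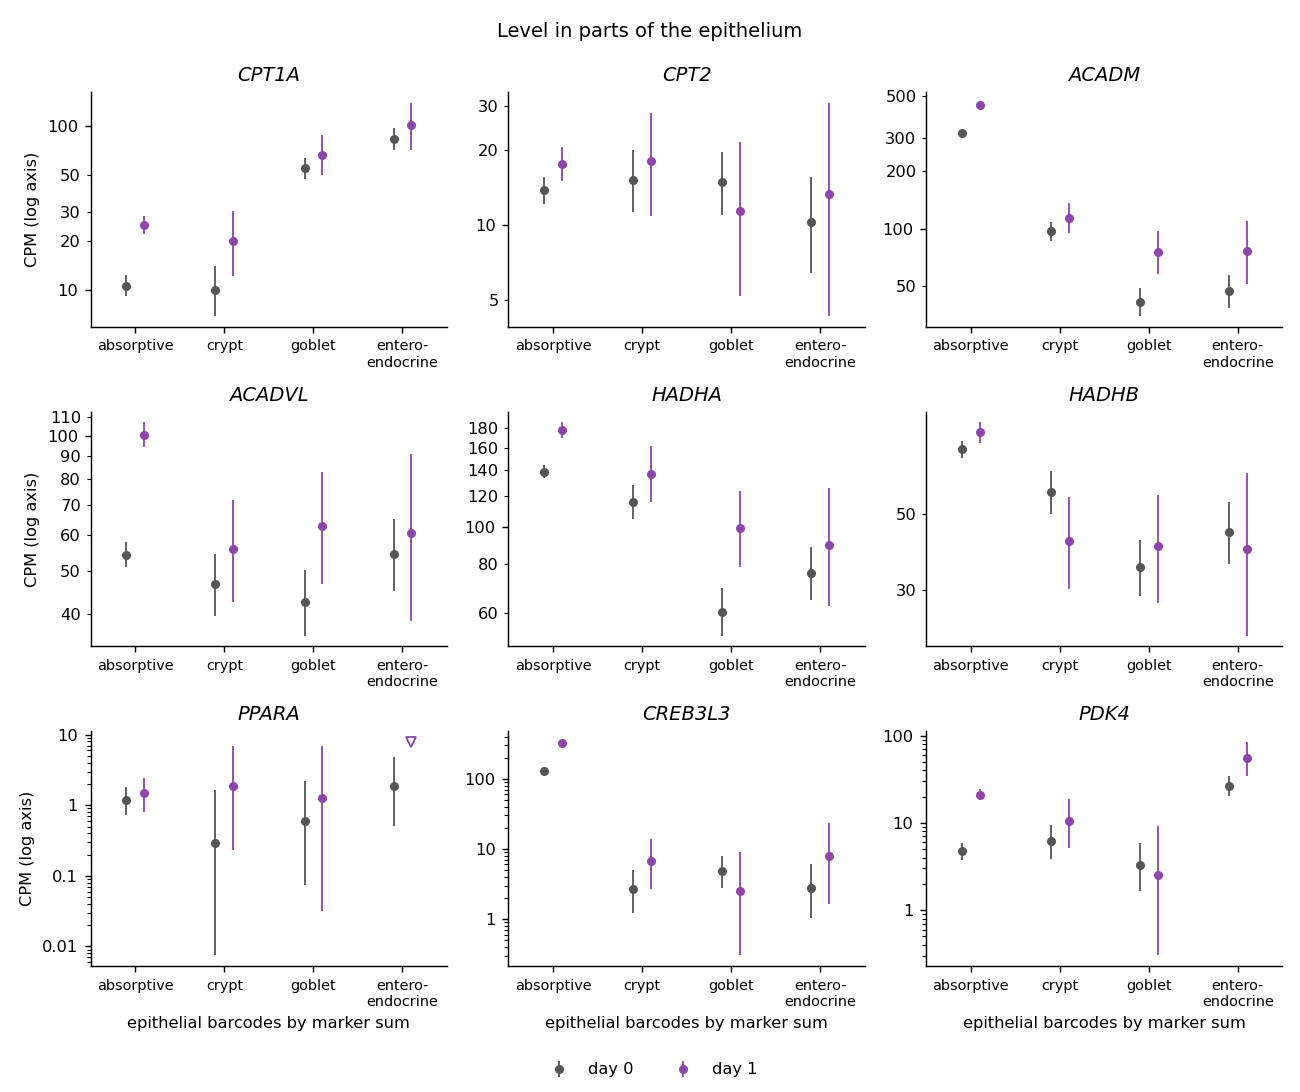
CPM (log axis) of the 9 genes in absorptive, crypt, goblet and enteroendocrine barcodes of days 0 (grey) and 1 (purple), with exact 95% Poisson intervals and an open triangle for the limit of 3 counts at 0 UMIs. CPT1A climbs from 10.7 in absorptive to 83.3 in enteroendocrine barcodes on day 0, whereas CREB3L3 drops from 127 to 2.79.

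Epithelial and B barcodes of the same library share its preparation and sequencing. At least 2-fold higher in epithelial barcodes were 6 of 9 genes on day 0 (35.9% of all genes), 9 of 9 on day 1 (36.4%), 1 of 6 on day 3 (29.3%) and 5 of 7 on day 7 (30.7%), and 0 were 2-fold lower on any of these days (14.1%, 17.0%, 14.5% and 20.9% of all genes). With TMM scaling 0 genes were higher on day 3 and 3 on day 7, and 0 were on day 3 with the lineage minimums doubled. On day 0 the lowest ratios over the alternative settings were below 2 for CPT2 (1.55), CPT1A (1.92) and HADHA (1.99). The highest were above 2 for ACADVL (2.07), HADHB (2.29) and PPARA (3.87), which were not counted. The CPT1A and HADHB values came from the setting that kept absorptive epithelial barcodes only, which is a different set of cells. On day 1 the lowest HADHB ratio was 1.63, and PPARA rested on 19 UMIs against 2 (2.28 to 83.6). The CREB3L3 ratios were 28.6 (18.9 to 45.8) for day 0, 56.7 (44.1 to 74.1) for day 1 and 194 (121 to 325) for day 7. Its B level, as a share of its epithelial level, was of similar size to that of epithelial genes, as given next. No order of the days is therefore read from the CREB3L3 ratios. ACADM was at 4.41, 5.95, 0.880 and 3.37 times the B level on days 0, 1, 3 and 7, and CPT1A at 3.79, 3.400, 1.57 and 2.06. ACADVL came nearest to the B level on day 7, at 1.12 (0.885 to 1.41). The median ratio of all genes was itself 1.37, 1.33, 1.14 and 1.08 on these days. When barcodes that met more than 1 rule were kept, the CREB3L3 ratio was 4.70 on day 0 and 9.67 on day 1.

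RNA outside cells also carried these transcripts. In barcodes of 1 to 100 UMIs, CREB3L3 was at 28.8, 71.3, 0, 3.14, 0.203 and 0 CPM from the youngest to the oldest library, and ACADM was at 97.3, 144, 41.0, 54.8, 77.7 and 52.6. The epithelial genes RBP2, FABP2 and APOA1 were found in B barcodes of day 0 at 2.46%, 1.80% and 2.02% of their epithelial level. CREB3L3 was at 3.49% there, somewhat above these. On day 1 it was at 1.77%, against 1.40%, 1.18% and 1.33% for the same 3 genes, and on day 7 at 0.515%, against 0.764%, 0.694% and 0.149%. As these shares were of similar size, no expression of CREB3L3 in B barcodes is read from its UMIs. On day 0 the other genes stood well above that share, with PDK4 at 16.7% on 10 UMIs, ACADM at 22.7%, CPT1A at 26.4%, HADHA at 34.6%, CPT2 at 47.4%, HADHB at 52.7% and ACADVL at 59.4%. A CREB3L3 UMI was found in 30.8% of epithelial barcodes of day 0 (median 9343 UMIs) and in 0.960% of B barcodes (median 3382 UMIs), and in 5.31% and 0.137% after thinning to 1000 UMIs.

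B barcodes, the most numerous lineage from day 1 on, held more of the enzymes at later ages. In order of age HADHA was at 40.2, 53.8, 76.4, 68.6, 98.8 and 98.2 CPM in B barcodes. CPT1A was at 5.60, 8.90, 11.8, 6.96, 19.7 and 14.3, with a dip on day 7 beyond counting error. On days 0, 14 and 21 ACADM was at 46.8, 94.4 and 77.3, ACADVL at 30.001, 64.5 and 51.3, and HADHB at 33.5, 61.5 and 62.6. CPT2 stayed between 5.74 and 7.00 at all 6 ages. In contrast, CREB3L3 in B barcodes was at 2.62 and 3.997 on days 0 and 1, 0.413 or fewer on days 3 to 14, and 0 of 61025252 UMIs on day 21. The epithelial check markers in B barcodes went the same way, from 57.03 on day 0 to 0.344 on day 21.

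Against day 0, 4 of 7 genes were at least 2-fold higher in B barcodes of day 14 (24.0% of all genes) and 1, CREB3L3, was 2-fold lower (16.7%). Since no expression of CREB3L3 in B barcodes was read from its UMIs, nothing about B cells is read from its place among the lower genes here or on days 3, 7 and 21. The 4 higher genes were CPT1A at 3.52 (2.63 to 4.81), HADHA at 2.46 (2.20 to 2.75), ACADVL at 2.15 (1.89 to 2.45) and ACADM at 2.02 (1.82 to 2.24), beside a median of 1.33 over all genes. The intervals of ACADVL and ACADM include 2. Ratios between B ages were not recomputed with TMM scaling. The TMM factors of B barcodes were 0.790 on day 0, 0.884 on day 14 and 0.955 on day 21, which would lower the ratios of those later days. On day 21, 2 of 7 were higher (26.6%), CPT1A at 2.56 and HADHA at 2.44, and 1 was lower (16.0%), CREB3L3, with 0 UMIs against 22. On day 3, 1 of 8 was higher (11.5%), CPT1A at 2.11, and 2 were lower (9.46%), CREB3L3 and PDK4. PDK4 had 10 UMIs in B barcodes of day 0 and 12 of day 3, its level there went from 1.19 to 0.241 CPM while the epithelial check markers went from 57.03 to 4.39, and the part of free RNA in this was not tested. Day 7 had 0 of 7 higher (17.7%) and 1, CREB3L3, lower (12.7%), and on day 1, 0 of 8 were past 2-fold (3.25% higher, 3.70% lower).

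The share of B barcodes with at least 2 UMIs of the cell cycle genes MKI67 and TOP2A was 3.66%, 5.11%, 16.1%, 19.8%, 44.2% and 27.3% in order of age. ACADM was higher in these barcodes than in B barcodes without either transcript at every age, by 2.09, 2.15, 1.82, 1.75, 1.74 and 1.67 times in order of age, each with an interval above 1. HADHA was higher by 1.42 to 1.88 times on days 0 to 14 and by 1.23 on day 21, although on day 0 the interval (0.954 to 2.05) included 1. HADHB was at 0.742, 1.46, 1.36, 1.11, 1.03 and 1.01 times in order of age, with intervals above 1 on days 1, 3 and 7 and including 1 on the other days. Within B barcodes without either transcript, HADHA was at 38.0 CPM on day 0 and 77.7 and 89.1 on days 14 and 21, and CPT1A at 5.31, 17.3 and 12.5. For ACADM the same barcodes held 42.8, 63.8 and 59.7. A barcode without either transcript is not shown to be non-cycling, and the part of cycling in the levels by age was not tested. At least 2-fold higher in cycling B barcodes were 2 of 7 genes on day 0 (14.8% of all genes) and 2 of 8 on day 1 (11.8%), and from day 3 on 0 genes were (5.65% to 8.58%). The only gene counted as 2-fold lower was CREB3L3, on day 1 with 0 UMIs in cycling barcodes against 60 (7.39% of all genes lower) and on day 7 with 3 against 18 (9.75%), and nothing about B cells is read from these either. Barcodes with these transcripts were deeper, with medians of 6464 against 3439.5 UMIs on day 14, and the part of depth was not tested.

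**Figure D4:**
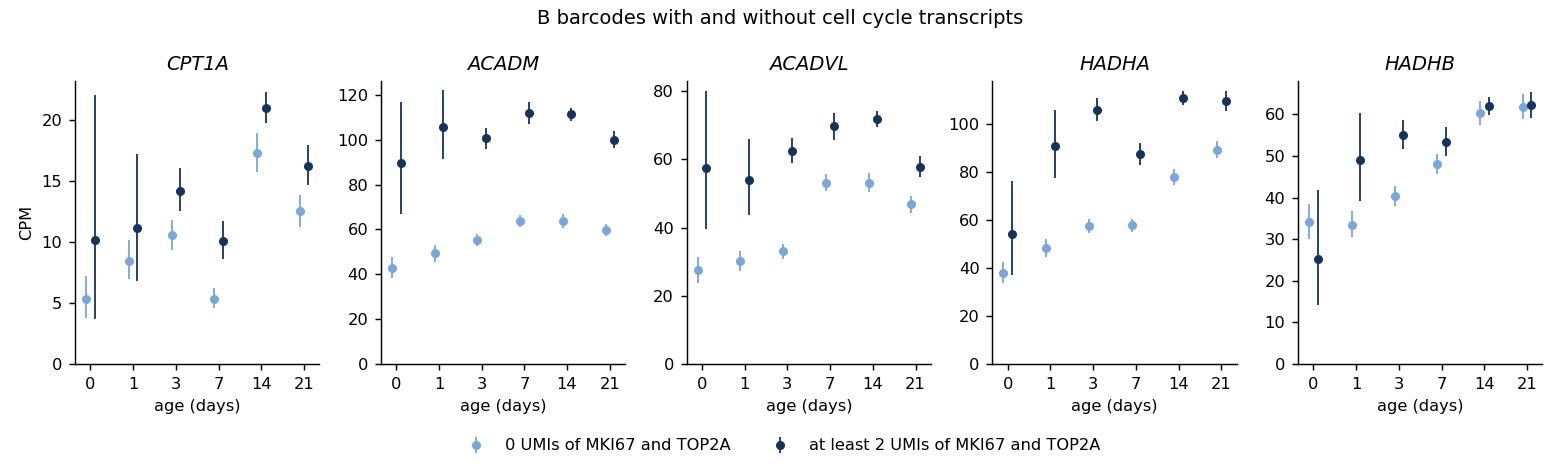
CPM of CPT1A, ACADM, ACADVL, HADHA and HADHB in B barcodes by age in days, for barcodes with 0 UMIs of MKI67 and TOP2A (light) and with at least 2 (dark), with exact 95% Poisson intervals and axes from 0. The dark points of ACADM lie above the light ones at all 6 ages, and the light points of HADHA run from 38.0 to 89.1.

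Among T barcodes, CPT1A was at 4.50, 10.9, 29.2, 11.9, 34.2 and 13.3 CPM in order of age, from 30, 84, 58, 29, 46 and 8 UMIs. Against day 0 its ratio was 6.50 (4.11 to 10.5) for day 3 and 7.61 (4.70 to 12.5) for day 14. ACADM in T barcodes was at 41.8, 46.6, 54.4, 128, 96.0 and 87.8, with its highest level on day 7, at 3.06 times day 0 (2.59 to 3.61). The counts at least 2-fold higher in T barcodes were 2 of 8 on day 1 (3.69% of all genes), 1 of 6 on day 3 (10.3%), 4 of 6 on day 7 (14.6%), 2 of 6 on day 14 (14.6%) and 2 of 6 on day 21 (17.8%). None was 2-fold lower on these days (7.24%, 10.6%, 11.5%, 9.21% and 8.43% of all genes). The median ratio of all genes in T barcodes was 0.921, 1.18, 1.23, 1.27 and 1.30 on the same days. Ratios between T ages were not recomputed with TMM scaling. The TMM factors of T barcodes were 0.867 on day 0 and 1.16, 1.17, 1.28 and 1.33 on days 3, 7, 14 and 21. Such factors would lower the ratios of those later days, so the counts depend on the scaling. The genes higher on day 1 were CPT1A at 2.42 and CREB3L3 at 2.31, the latter at 2.29% of its epithelial level in T barcodes of that day, against 1.52%, 1.11% and 1.54% for RBP2, FABP2 and APOA1, and the part of free RNA in its ratio was not tested. In myeloid barcodes CPT1A was at 15.1, 20.9, 38.3 and 23.0 CPM on days 0, 1, 3 and 14. On day 1, 1 of 7 genes was at least 2-fold higher there (9.17%), PDK4, on 3 UMIs of day 0. On day 3, 2 of 6 were (11.4%), CPT1A at 2.54 (1.58 to 4.18) and CPT2 at 3.29 (1.36 to 9.12), and on day 14 0 of 5 were (12.5%). None was 2-fold lower on these days (8.04%, 5.68% and 12.8%). Between days 3 and 0, CPT1A thus stood at 6.50 in T, 2.54 in myeloid, 2.11 in B and 0.871 in epithelial barcodes, all from the same pair of libraries. The epithelial sets were unlike, with 926 absorptive barcodes among 2601 on day 0 and 0 among 87 on day 3. The part of this makeup in the ratio of 0.871 was not tested. TMM factors were higher on day 3 than on day 0 in each of these lineages, so TMM scaling would lower all of these ratios.

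PDK4 was also counted outside the 4 lineages. Of its 1233 UMIs in the series, 42.3% lay in epithelial barcodes and 36.3% in barcodes of no lineage, against 71.6% and 6.52% for CREB3L3. Among barcodes of no lineage, those with at least 10 UMIs of the stromal markers COL1A1, COL3A1, DCN and PDGFRA held PDK4 at 39.0, 53.9 and 33.8 CPM on days 0, 1 and 3 (241, 345 and 175 barcodes). Those with 10 UMIs of the endothelial markers PECAM1, KDR and CDH5 held it at 38.3 (162 barcodes), 52.2 (206) and 61.4 (19). These levels lie above the 7.13, 17.0 and 3.96 of all epithelial barcodes on the same days. Enteroendocrine barcodes alone held PDK4 at 26.5 (20.1 to 34.4) on day 0 and 55.5 (34.4 to 84.8) on day 1. On both days those intervals overlapped the stromal ones (27.2 to 54.2 and 43.5 to 66.0) and the endothelial ones (27.6 to 51.8 and 42.2 to 63.8). From day 7 on, 1 barcode or fewer per library met the stromal rule and likewise the endothelial rule. CPT2 stood at 17.8, 17.96 and 56.8 CPM in the stromal barcodes of days 0, 1 and 3 and at 27.4, 21.4 and 20.5 in the endothelial ones, the last on 3 UMIs, beside 13.6, 17.7 and 14.5 in epithelial barcodes. Its stromal interval lay above the epithelial level on day 3 (42.4 to 74.4) and included it on days 0 and 1. The endothelial interval lay above it on day 0 (18.5 to 39.1) and included it on days 1 and 3.

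The wider pathway was read from a list of 54 further genes, all counted in the files. In epithelial barcodes of day 1 against day 0, 4 of 51 genes with enough UMIs were at least 2-fold higher (6.69% of all genes) and 1 was 2-fold lower (6.37%), so the share of higher genes was near that of all genes. The higher ones were ACSL3 (2.37) and ACSL1 (2.65), which activate fatty acids to acyl-CoA, and the lipid-response genes ANGPTL4 (2.41) and G0S2 (6.63), an inhibitor of lipolysis. The lower one was FABP1, a fatty acid binding protein, at 0.430 (0.417 to 0.443). None of the 13 further genes of mitochondrial β-oxidation and none of the 4 peroxisomal genes was past 2-fold on day 1. Within the absorptive barcodes 9 of 48 genes of the list were higher on day 1 (9.57% of all genes) and 2 were lower (5.50%). The share of higher genes was thus above that of all genes there. By role, 4 of 9 uptake genes were higher and 2 lower, and 4 of 7 response genes were higher. The uptake genes include FABP2, which is part of the sum that picked these barcodes.

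On day 3, 4 of 46 genes of the list were at least 2-fold higher in epithelial barcodes (18.9% of all genes) and 14 were 2-fold lower (10.5%), with a median of 0.624 beside 1.19 over all genes. The lower group held the uptake genes FABP2 (0.00237), FABP1 (0.0155), ACSL3 (0.175) and SLC27A4 (0.191), the bile acid receptor NR1H4 (0.130), the peroxisomal enzyme EHHADH (0.267) and HADH (0.349), which acts on short chains. FABP2 belongs to the absorptive sum that was near 0 on this day. ACSL4, which prefers arachidonate, was higher at 6.98 (4.24 to 10.99). On day 7, 8 of 48 were higher (19.0% of all genes) and 3 lower (9.82%), both shares below those of all genes. The higher ones included ACSL4 at 9.35 (6.56 to 13.1), with FABP2 at 2.56, NR1H4 at 2.50 and ACSL3 at 2.47. ACADSB, the dehydrogenase of short branched chains, was at 0.359 (0.255 to 0.491).

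NR1H4, like CREB3L3, was lowest on day 3 and highest on day 14. In epithelial barcodes it was at 71.1, 135, 9.23, 178 and 667 CPM on days 0, 1, 3, 7 and 14. PPARGC1A, a coactivator of mitochondrial genes, was at 28.3, 29.998, 14.5, 38.0 and 17.0 in the same barcodes and below 1 in B barcodes at every age. UCP2, a mitochondrial carrier, had the reverse distribution, with 2.31 to 17.0 in epithelial barcodes of days 0 to 14, against 96.4 in B barcodes of day 0 and 474 on day 14. In B barcodes of day 14 against day 0, 8 of 48 genes of the list were higher (24.0% of all genes) and 9 lower (16.7%), so fewer of the list than of all genes were higher. By role, 4 of 5 carnitine genes were higher and 0 lower, 0 of 8 uptake genes were higher and 3 lower, and 0 of 13 genes of mitochondrial β-oxidation were higher and 1 lower. Of the regulators 0 of 6 were higher and 2 lower, of the response genes 2 of 7 were higher and 2 lower, of the peroxisomal genes 1 of 4 was higher and 1 lower, and of the ketone body genes 1 of 5 was higher. On day 21, 3 of 5 carnitine genes were higher and 1 was lower (26.6% and 16.0% of all genes). The carnitine genes higher on day 14 included CPT1B (4.62), the carnitine carrier SLC25A20 (4.35) and CRAT (2.18).

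Of the 6 genes of ketone body metabolism on the list, 4 were at least 2-fold higher in epithelial than in B barcodes on day 0 (35.9% of all genes), 5 of 6 on day 1 (36.4%), 2 of 5 on day 3 (29.3%) and 2 of 5 on day 7 (30.7%), and 0 were 2-fold lower on these days (14.1%, 17.0%, 14.5% and 20.9%). Between epithelial ages, 0 of 6 were past 2-fold on day 1 against day 0 (6.69% of all genes higher, 6.37% lower), on day 3, 1 of 5 was higher (18.9%) and 1 lower (10.5%), and on day 7, 1 of 6 was higher (19.0%) and 0 lower (9.82%), from which nothing is read. Values are given for BDH1 and OXCT1, picked after they had been seen. BDH1, which interconverts the main ketone bodies, was at 3.44 CPM in absorptive barcodes of day 0 (2.63 to 4.42), at 17.5 in goblet (13.3 to 22.6) and at 18.6 in enteroendocrine barcodes (13.3 to 25.4). OXCT1, the enzyme of ketone body use, was at 49.7 in absorptive barcodes of day 0 and 29.1 on day 1.

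**Figure D5:**
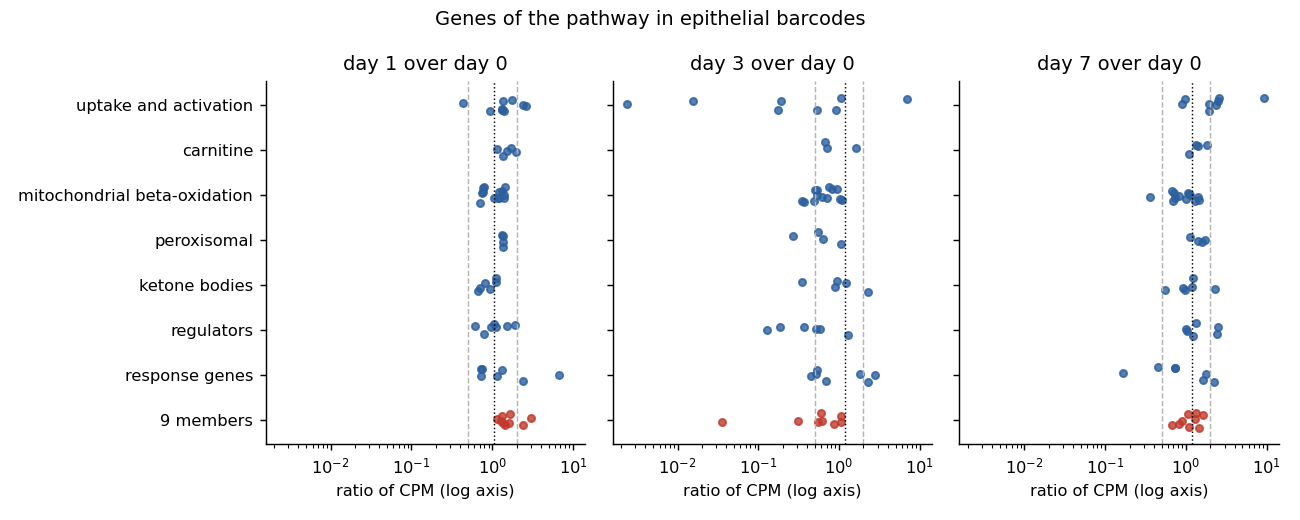
Ratio of CPM to day 0 (log axis) in epithelial barcodes of days 1, 3 and 7, with a point for each gene of the pathway list (blue, by role) and for each of the 9 genes (red) that had at least 20 UMIs and gave a ratio. Dashed lines mark 2-fold and the dotted line the median of all genes. On day 3 the uptake genes spread from 0.00237 to 6.98, while on day 1 no point of mitochondrial beta-oxidation lies past 2-fold.

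Likeness of pattern was described by Pearson's r of log2(CPM + 1) over the 20 pairs of library and lineage with at least 50 barcodes. These pairs share libraries and differ in depth, so no p is given. Nearest to CREB3L3 were SLC26A3 (0.989), MEP1A (0.989) and APOC3 (0.983), and nearest to ACADM were MFSD11 (0.953), SLC25A5 (0.951) and RNF185 (0.914). PDK4 went with PREX2 (0.954), SLPI (0.954) and APOA1 (0.947). HADHB was nearest to SPTSSA (0.902) and HADHA (0.872), while HADHA was nearest to SEC13 (0.906), MTCH2 (0.901) and CALM3 (0.895). For ACADVL the nearest were COPG1 (0.905), SEC13 (0.891) and MPDU1 (0.880), and for CPT2 they were PANX1 (0.913), GFPT1 (0.871) and LOC100523609 (0.869). CPT1A had no close partner, its highest values being 0.798 with SNUPN, 0.772 with USO1 and 0.770 with CAPRIN1, and its r with CPT2 was 0.422. PPARA was left out, with 92 UMIs over these pairs.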

How the data were processed

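Cells of scraped ileal mucosa were profiled with a 10x Genomics 3′ kit (version 2 in the methods, V3 in the labels). The sample labels and methods name the ileum, while the text of the series names the cecum. The authors counted UMIs with Cell Ranger 3.1.0 and STAR against Sscrofa11.1 and deposited raw counts per gene and barcode, unfiltered, for 20648 genes and 6794880 barcodes per library. Totals were 77391932 to 100348769 UMIs per library. No deposited annotation of cells was used, and no clustering or doublet caller was run here. Barcodes that met more than 1 lineage rule were left out as possible doublets.

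Barcodes needed 1000 UMIs and 500 genes. UMIs of a gene were summed over the barcodes of a lineage and divided by all their UMIs, scaled to 1000000 (CPM). Intervals are exact Poisson for levels, exact Clopper-Pearson for shares and conditional binomial for ratios, at 95%. They cover counting error and leave out variation among animals. A ratio needed 20 UMIs over both groups and 50 barcodes in each, and a count of 0 was set at 3 counts. Where that made the group with 0 UMIs the higher one, the ratio was left out, for the 9 genes and for all genes alike. Alternatives varied the minimum of UMIs and genes, the mitochondrial share, the lineage rules, the scaling (nuclear genes, TMM of edgeR 4.0.16), the weighting and depth of barcodes and the fold. Others left out enteroendocrine barcodes, left out barcodes found in more than 1 library, or kept absorptive epithelial barcodes only. The settings on shared and on absorptive barcodes were not planned. Positions and overlaps come from RefSeq of Sscrofa11.1, where all 9 symbols were found. The 9 genes, the lists and the rules were chosen with earlier results of these data known. Genes named are the 9, the pathway list, the markers and the 3 nearest genes by r, except some that are not reported here. Python 3.11.15, numpy 2.4.6, pandas 2.3.3, scipy 1.17.1 and R 4.3.3 were used.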

Additional observations from a re-analysis of the deposited data

How the results depend on the processing

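Over 13 alternative settings, 716 ratios of single genes were recomputed for the contrasts of epithelial ages and of epithelial with B barcodes. None changed direction among the ratios past 2-fold, 601 moved by less than the interval of the original value, and 115 moved by more. Of 1152 recomputed levels, 910 stayed within the interval and 242 did not. The 2 genes higher in epithelial barcodes on day 1 were 1 with levels averaged over barcodes, 1 after thinning to 1000 UMIs, and 4 at a fold of 1.5. The 2 genes lower on day 3 were 5 with TMM and 5 at a fold of 1.5. On day 7, where 0 genes were past 2-fold, 1 was higher and 2 were lower with levels averaged over barcodes, and 1 was higher at a fold of 1.5. The 1 gene higher in epithelial than in B barcodes on day 3 was 0 with the lineage minimums doubled, 0 with TMM, and 2 with levels averaged over barcodes, after thinning, with no minimum of UMIs and at a fold of 1.5. The 5 genes higher on day 7 were 3 with TMM. TMM moved the median log2 ratio of all genes from 0.25 to -0.08 on day 3 and from 0.25 to -0.09 on day 7 against day 0, and from 0.11 to -0.34 for epithelial over B barcodes of day 7. Apart from that construction, the cause of these changes was not tested. Levels on days 3, 7 and 14 of the epithelium rest on 87, 196 and 27 barcodes, which limits what could be detected there. With 1 library per age no test between ages was possible. Epithelial and B barcodes were compared within libraries, but no paired test over libraries was run, and no result came from a test.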
